A study of Mus musculus with 12 samples.

Results

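The transcriptome of WT bone marrow (BM) neutrophils was described from the 4 RNA-seq libraries whose labels give the genotype WT and the source Bone marrow, among the 12 libraries of the series. These libraries served as the non-tumor reference of a study of tumor-associated neutrophils, and the other 8 were not used here. The donors were FVB WT mice of 10 weeks under SOPF housing, with neither a transgene nor a treatment in the labels, and each library is numbered as a separate replicate, here termed mouse 1 to mouse 4. Cells from the femurs and tibias were depleted of red cells by lysis, enriched for CD11b and then sorted as CD45+ CD11b+ Ly6G+ F4/80- cells, and the RNA was taken up in TRIzol and depleted of ribosomal RNA before directional paired-end sequencing.

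Neutrophils arise in the marrow from dividing precursors, which pass through promyelocyte and myelocyte stages before they stop dividing and become band and segmented cells. Their granules are filled in that order. Primary (azurophil) granules carry Mpo, Elane and other serine proteases made by promyelocytes, secondary (specific) granules carry Ltf, Camp and Lcn2 made by myelocytes, and tertiary (gelatinase) granules carry Mmp9 made later. Mature cells of the marrow reserve are held there through Cxcr4 and leave it in response to ligands of Cxcr2. Ly6G, the antigen of the sort, appears on the surface during this maturation, so that the gate takes few of the earliest precursors.

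Levels are given on 2 scales. CPM scale the counts of a gene to the total that its library has on genes and serve to compare the mice. TPM divide the counts by the exon bases of the gene before the same scaling and serve to compare genes of different length. The totals on genes were 38722900 to 44310707 counts per mouse, and 3 counts, taken as the floor, corresponded to 0.0677 to 0.0775 CPM. This floor covers counting error only. Among genes with 1 to 20 counts, 64.97% to 68.9% had an even count, and 2001 to 2122 genes stood at 2 counts while 803 to 996 stood at 1. Whether both mates of a pair were counted was not tested, and levels near the floor are read as listed values only.

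The markers of the sort matched the labels. Ly6g had 494, 396, 431 and 486 CPM in mice 1 to 4, and the macrophage gene Adgre1, which encodes the F4/80 antigen gated out, had 9.09, 8.52, 9.15 and 7.28 CPM. Within each mouse, the length-scaled level of Ly6g was 159.6 to 229 times that of Adgre1. Ptprc (CD45) stood at 2379.6 to 2828 CPM, and Itgam (CD11b) at 449.9 to 537 CPM, a value that is uncertain because 68.7% of its exon bases overlap another gene on its strand. The 14 neutrophil markers together took 9.399% to 11.2% of the counts. In all 4 libraries Xist was at 232 to 300.5 CPM, and the Y-linked genes Kdm5d, Uty and Eif2s3y had 0 counts. The labels do not give the sex.

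Mouse 1 stood somewhat apart from the others. Over the 11050 genes of 1 CPM or more in each mouse, the median absolute log2 ratio between libraries was 0.19 to 0.21 for the pairs with mouse 1 and 0.14 to 0.16 for the other pairs. The common biological coefficient of variation (BCV), the relative spread between mice beyond counting noise as edgeR estimates it, was 0.164 with 4 mice and 0.133 without mouse 1. As a check for duplicate libraries, the chi-square of the counts over its degrees of freedom was 23.2 to 64.7 for the 6 pairs, so no pair was counted as 1 sample. As CPM are shares, a rise of the most abundant transcripts lowers all others, and the TMM factors that offset this were 0.937 to 1.06.

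The transcriptome was concentrated on few genes, with the S100 and secondary granule genes at its head. S100a9 alone took 2.53 to 3.37% of all counts and S100a8, its partner in the heterodimer calprotectin, brought the share to 4.76 to 5.89%. The 10 most abundant genes took 15.6, 13.8, 13.2 and 16.4% of the counts in mice 1 to 4, the 100 most abundant took 31.8 to 35.2% and the 1000 most abundant 68.1 to 70.7%. In each mouse 313 to 383 genes were enough to reach 50% of the counts. At the other end, 11050 genes reached 1 CPM in every mouse, 6011 reached 10 CPM, 1686 reached 100 CPM and 93 reached 1000 CPM, of which 87 were nuclear protein-coding genes. Of the 21886 nuclear protein-coding genes listed, 9193 (42%) reached 1 CPM in every mouse, a share that serves below as the background for the gene lists, and 6539 had no count in any mouse.

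**Figure D1:**
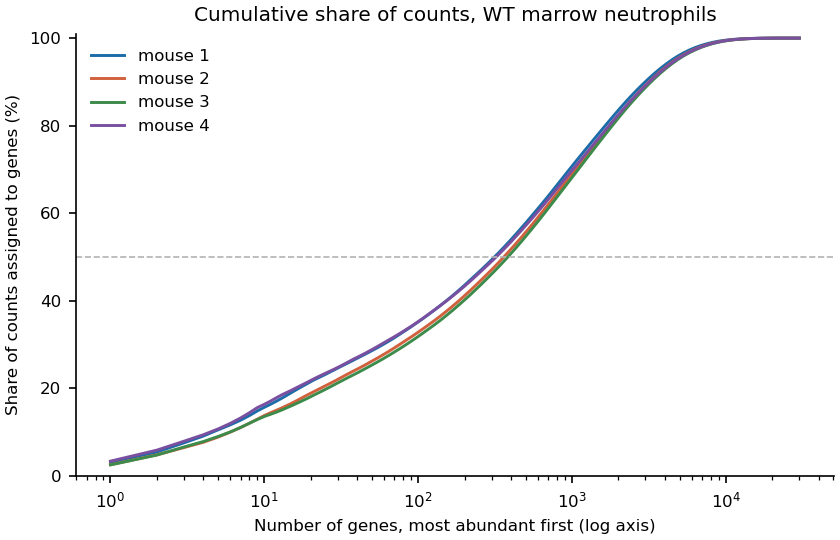
Cumulative share of the counts assigned to genes (y axis, percent) against the number of genes taken, most abundant first within each mouse (x axis, log scale), with 1 line for each of the 4 WT mice and a dashed line at 50%. Mouse 4 has the highest line up to 128 genes and mouse 1 from 139 genes on, and those of mice 2 and 4 cross near the top of the curve. The 50% line is reached at 313, 360, 383 and 321 genes in mice 1 to 4.

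Of the 25 genes of highest mean CPM, 20 were protein-coding. S100a9 had 31153, 25690, 25256 and 33739.7 CPM in mice 1 to 4 and S100a8 had 23455, 22442, 22393 and 25139 CPM. Mouse 4 was the highest and mouse 3 the lowest for both genes. They lie in the S100 cluster of chromosome 3 (mm10), S100a9 at 90692632 to 90695721 on the minus strand and S100a8 at 90668978 to 90670035 on the plus strand. Actb, encoding cytoplasmic beta-actin, had 20932, 16591, 18372 and 20339 CPM, and Ngp, encoding a secondary granule protein of the cathelicidin-related family, had 15386, 11896, 11671 and 14699 CPM. Ngp, Camp and Ltf lie near each other on chromosome 9, at 110419747 to 110423012, 109847379 to 109849617 and 111019271 to 111042767. Other genes of the cytoskeleton and of motility were near the top, with 4361 to 6699 CPM for Myh9 (non-muscle myosin), 4101 to 5639.6 CPM for Flna (filamin A), 3898 to 4654 CPM for Lcp1 (L-plastin) and 4758 to 5216 CPM for Tmsb4x, which binds actin monomers. Anxa1, a phospholipid-binding protein that restrains neutrophil recruitment, had 4962 to 5337 CPM. Syne1, Adpgk and Sorl1 completed the coding genes of this rank. Syne1 shows what the length scale changes, as its 40491 bases of exon placed it at rank 22 by CPM and at rank 400 of the protein-coding genes by TPM.

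Of the 5 noncoding genes of this rank, Gm26917 and Gm23935 had the widest relative spread between mice and mt-Rnr2 the narrowest. Malat1, a nuclear long noncoding RNA, had 7051, 10045, 12343 and 12115 CPM and was lowest in mouse 1. Rn7sk, the RNA of the 7SK particle that holds back transcription elongation, had 10641, 8569, 8590.2 and 13356 CPM and mt-Rnr2, the large mitochondrial ribosomal RNA, had 10571, 10394, 9685 and 12659.9 CPM. Gm26917 had 10639, 9022, 3442 and 7502 CPM, with mouse 3 the lowest. Gm23935, annotated as a miRNA gene of 57 bases, had 8360.3, 5242, 4010.5 and 7559.7 CPM and, through its short length, took 15.4% to 26.0% of the summed TPM. It lowered the TPM of every other gene in mice 1 and 4 relative to mice 2 and 3, so differences between mice are read from CPM. The SDs of TPM include this shared shift and do not measure the spread of a gene alone.

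On the length scale the 25 leading protein-coding genes included genes of granule, antimicrobial and motility proteins, and 20 of them were on the lists used here. The lists were chosen with earlier results of these data known, so nothing is read from this number. S100a9 reached 106638 ± 3641 TPM (SD, n = 4) and S100a8 65231 ± 4908 TPM. Retnlg, encoding a resistin-like protein of marrow and blood neutrophils, came after them at 22687 ± 1964 TPM. They were followed by Ngp at 21104 ± 842 TPM and Lyz2, lysozyme, at 16494 ± 1385 TPM. Retnlg was below Ngp in mouse 1 and above it in mice 2, 3 and 4. S100a9 exceeded S100a8 in every mouse, at 1.77, 1.52, 1.499 and 1.78 times its TPM, a ratio that depends on the exon lengths used. Actb had 13741 ± 950.3 TPM, Camp, encoding the cathelicidin precursor, 10091 ± 429 TPM, Tmsb4x 6921 ± 643 TPM and Ltf, lactoferrin, 6839 ± 570.1 TPM. The last 3 of the first 12 were Lcn2 (4188 ± 201 TPM), Anxa1 (3451 ± 347 TPM) and Mmp8 (3249 ± 362 TPM). Lower on the same list stood Tyrobp, an adaptor of activating receptors, H2-D1, a class I major histocompatibility gene with near-identical relatives, Wfdc21, Ifitm6, Msrb1, Coro1a and S100a11, with 1548 to 2735 TPM on average.

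The 24 granule genes listed, lysozymes included, took 6.98 ± 0.6403% of the counts (SD, n = 4), and most of this came from the secondary granules. Their summed shares were 4.36% to 5.59% for the 12 secondary granule genes, 1.03% to 1.17% for both lysozymes, 0.785% to 0.906% for the 4 tertiary granule genes and 0.0135% to 0.0169% for the 6 primary granule genes. The secondary share was the largest and the primary share the smallest in every mouse. The median gene of the secondary list had 2324 TPM and that of the primary list 11.5 TPM, where the median expressed nuclear protein-coding gene had 9.44 TPM.

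Within the secondary list, Ltf had 14299, 11996, 10341 and 12304 CPM in mice 1 to 4, Lcn2, a siderophore-binding lipocalin, 6431, 5099, 4744 and 6636 CPM, and Camp 4442, 3628, 3288 and 4584 CPM. Mouse 3 was the lowest of the 4 mice for these genes, as it was for all 11 expressed members of the list. Mmp8, the neutrophil collagenase, had 3899.7 to 4167 CPM and Cd177, a surface glycoprotein stored in these granules, 2482 to 3102 CPM. Chil3, a chitinase-like protein, had 1943 to 2438 CPM and its relative Chil1 945 to 1096 CPM, while Olfm4 (olfactomedin 4) had 1476 to 1923 CPM. Hp (haptoglobin) and Pglyrp1, which binds bacterial peptidoglycan, had 1563 to 1736 CPM and 1226 to 1507 CPM. Ptx3, encoding a pentraxin stored in specific granules, had 0 counts in every mouse, which allows at most 0.0775 CPM.

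Of the primary granule genes, Cd63, Elane and Mpo lay above the median expressed gene on the length scale and Prtn3, Ctsg and Bpi below it. Cd63, a membrane protein of these granules and of late endosomes in many cell types, had 110.2, 103, 104 and 107 CPM in mice 1 to 4. Mpo (myeloperoxidase) had 26.7, 17.7, 35.3 and 24.4 CPM, Elane (neutrophil elastase) 11.9, 6.17, 15.4 and 10.9 CPM, Prtn3 (proteinase 3) 6.63, 5.71, 9.25 and 7.35 CPM and Ctsg (cathepsin G) 3.02, 2.76, 4.58 and 3.37 CPM. In these 4 genes mouse 3 was the highest and mouse 2 the lowest, the reverse of mouse 3's place among secondary granule genes. Bpi, a bactericidal protein of primary granules, had 0, 4, 4 and 11 counts and was the only member below 1 CPM in every mouse. Within a mouse, the length-scaled level of Ltf was 343, 554, 192 and 323 times that of Elane and 291 to 674 times that of Mpo.

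Of the tertiary granule genes, Mmp9 (gelatinase B) had 6447, 5107, 5114 and 5072 CPM, with mouse 1 above the other 3 mice. Adam8, a surface metalloprotease, had 1397 to 1859 CPM, Mmp25, a membrane-anchored metalloprotease, 740.5 to 919.9 CPM and Slc11a1, a phagosomal metal transporter, 273 to 324 CPM. Lyz2 had 11379.8, 11432, 10245 and 11727 CPM. Lyz1, its close relative, had 7.96 to 9.33 CPM, and per length the Lyz2 level was 1207 to 1308 times the Lyz1 level. Reads shared by both lysozymes cannot be assigned, so the Lyz1 level is uncertain.

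**Figure D2:**
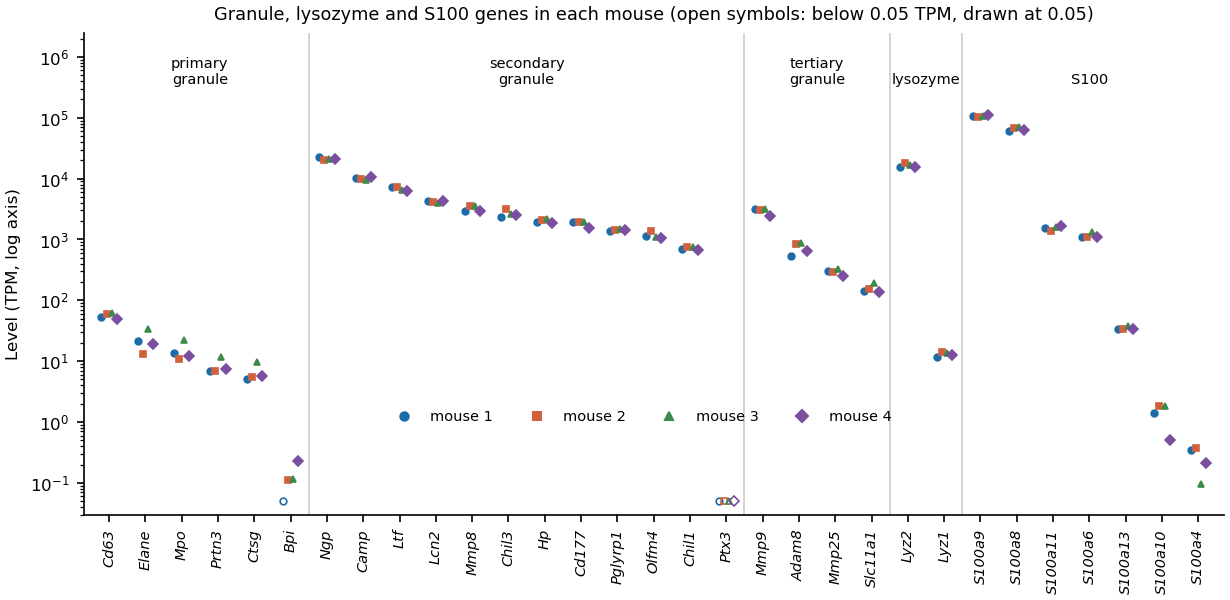
Level of each listed granule, lysozyme and S100 gene (y axis, TPM, log scale) in each of the 4 mice (symbols), by list and in falling order of the mean, with open symbols at 0.05 for levels below it. The secondary granule genes other than Ptx3 lie between 713 and 21104 TPM on average and the primary granule genes at 56.0 TPM or lower.

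The promoters of 5 of these genes are shown as members of the secondary, S100 and primary sets, which lie far apart in level. The sequences are the RefSeq promoter bases on GRCm38.p6, written 5′ to 3′ on the strand of the gene and ending at the base before the annotated start or before the first exon base of any GENCODE gene. Capitals mark the C/EBP-type motif TTNNGCAA and the PU.1-type motif GAGGAAG, each searched on both strands. Ngp lies at chr9:110419558-110419746 (+), Ltf at chr9:111019042-111019270 (+), Mmp8 at chr9:7558179-7558428 (+), S100a9 at chr3:90695722-90695971 (-) and Elane at chr10:79886062-79886246 (+).
Ngp: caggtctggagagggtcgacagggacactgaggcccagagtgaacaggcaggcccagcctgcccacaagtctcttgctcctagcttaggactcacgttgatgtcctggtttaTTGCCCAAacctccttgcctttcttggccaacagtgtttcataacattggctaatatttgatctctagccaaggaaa
Ltf: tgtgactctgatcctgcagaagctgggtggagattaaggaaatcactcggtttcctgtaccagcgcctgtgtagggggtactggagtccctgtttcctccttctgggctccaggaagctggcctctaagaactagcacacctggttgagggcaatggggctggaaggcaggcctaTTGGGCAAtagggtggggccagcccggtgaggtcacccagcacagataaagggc
Mmp8: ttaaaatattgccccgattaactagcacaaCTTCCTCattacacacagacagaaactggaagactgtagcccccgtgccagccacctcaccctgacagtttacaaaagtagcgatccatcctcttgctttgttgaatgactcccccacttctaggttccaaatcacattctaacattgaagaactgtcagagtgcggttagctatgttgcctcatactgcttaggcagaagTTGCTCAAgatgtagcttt
S100a9: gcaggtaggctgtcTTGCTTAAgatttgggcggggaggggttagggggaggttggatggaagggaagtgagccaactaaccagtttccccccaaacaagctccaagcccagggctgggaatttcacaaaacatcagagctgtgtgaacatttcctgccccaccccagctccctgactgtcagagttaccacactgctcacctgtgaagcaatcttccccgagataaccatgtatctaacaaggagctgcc
Elane: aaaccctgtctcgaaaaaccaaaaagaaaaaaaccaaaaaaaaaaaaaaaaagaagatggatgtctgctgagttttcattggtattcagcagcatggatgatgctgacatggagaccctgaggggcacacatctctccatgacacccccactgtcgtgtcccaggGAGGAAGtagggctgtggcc

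In the 250 bases before the RefSeq start, TTNNGCAA was found in Ngp with its 5′ end at 138 and at 11 bases before the start, the latter in bases not printed, in Ltf at 75 bases, in Mmp8 at 19 bases and in S100a9 at 236 bases. GAGGAAG was found in Mmp8 at 220 bases and in Elane at 85 bases. Of the 11 secondary granule genes with a promoter in the table, 5 held TTNNGCAA (45.5%) and 4 held GAGGAAG (36.4%). Of the 22 granule and lysozyme genes with a promoter, 7 held TTNNGCAA and 11 held GAGGAAG, the latter including Mpo, Elane, Prtn3, Ctsg, Bpi and Cd63, which are the whole primary list. Among all 16513 nuclear protein-coding genes with a promoter, 8.99% held TTNNGCAA and 10.1% held GAGGAAG, and among the 7361 of them with 1 CPM or more in every mouse the shares were 7.31% and 10.9%. Of the 100 protein-coding genes of highest TPM, 80 had a promoter, and 15 of these held TTNNGCAA (18.8%), 11 held GAGGAAG (13.8%) and 17 held the TATA motif TATAAA on the strand of the gene (21.3%). TATAAA was found in 8.04% of all these promoters and in 3.56% of those of expressed genes. A match describes letters in a window and was not tested as a binding site.

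Of the genes for cytosolic proteins, S100a9 and S100a8 were the most abundant. The 7 S100 genes took 4.89% to 6.03% of the counts, nearly all in this pair, and all 5 expressed members were highest in mouse 4. S100a6 had 839, 719, 831 and 868 CPM and S100a11 448, 339, 373 and 489 CPM in mice 1 to 4, while S100a13 had 11.8 to 13.99 CPM. S100a10 had 0.353 to 1.06 CPM, near the limit of expression, and S100a4 at most 0.113 CPM, although 51.7% of its exon bases overlap another gene on its strand. The stefins, inhibitors of cysteine proteases, numbered 7 of 9 at 10 CPM or more. Gm5483 had 220.3, 241, 303 and 298 CPM and Stfa2l1 165, 144, 208 and 203 CPM, and 6 of the 7 were highest in mouse 3. The stefin genes of chromosome 16 are near-identical, so the split of counts between them is uncertain. Cstb, the stefin of chromosome 10, had 21.4, 21.2, 21 and 26.1 CPM.

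The NADPH oxidase makes superoxide at the phagosome, and each of the 5 subunits described here had over 100 CPM in every mouse. Per length, Rac2, the small GTPase of the complex, was highest at 1047 ± 68.3 TPM, followed by Cyba (p22phox) at 844 ± 24.9 TPM and Ncf1 (p47phox) at 789.9 ± 108 TPM. Ncf4 (p40phox) had 663 ± 71.6 TPM and Cybb (gp91phox) 627 ± 75.7 TPM. Of the membrane subunits, Cybb had 2126, 1929, 1709 and 1743 CPM and Cyba 516, 414, 396 and 496 CPM in mice 1 to 4, and mouse 1 was the highest for both. Secretory vesicle genes were uneven. Fpr1 and Fpr2, receptors for formylated peptides, had 690.2 ± 54.6 and 685 ± 52.1 TPM, and Cd14, the lipopolysaccharide co-receptor, 393 ± 96.2 TPM. Alpl, Mme and Anpep, human markers of these vesicles and of mature neutrophils, had at most 0.103, 0.103 and 0.188 CPM.

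By maturation stage, transcripts of the intermediate list (myelocytes to band cells) and of the mature list were far more abundant than those of the early and proliferating lists. The summed length-scaled levels were 55999 ± 1366 TPM for the 12 intermediate genes, 40255 ± 3852 TPM for the 19 mature genes, 336 ± 31.3 TPM for the 13 early genes and 129 ± 28.9 TPM for the 19 proliferation genes (SD, n = 4). Against nuclear protein-coding TPM alone these sums were 88710.0, 63433, 529.9 and 202 TPM, and with the mean transcript length the proliferation sum was 209 TPM. The median gene of these lists had 2311, 682, 6.53 and 3.58 TPM, in the same order. Within each mouse the intermediate sum was 163, 164, 157 and 188 times the early sum and 1.22 to 1.56 times the mature sum. This order was the same in every mouse. As 7 intermediate genes are also secondary granule genes and 4 early genes are primary granule genes, the stage and granule results are not independent. In libraries from a sorted population, fewer cells of a stage and less RNA per cell cannot be told apart.

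**Figure D3:**
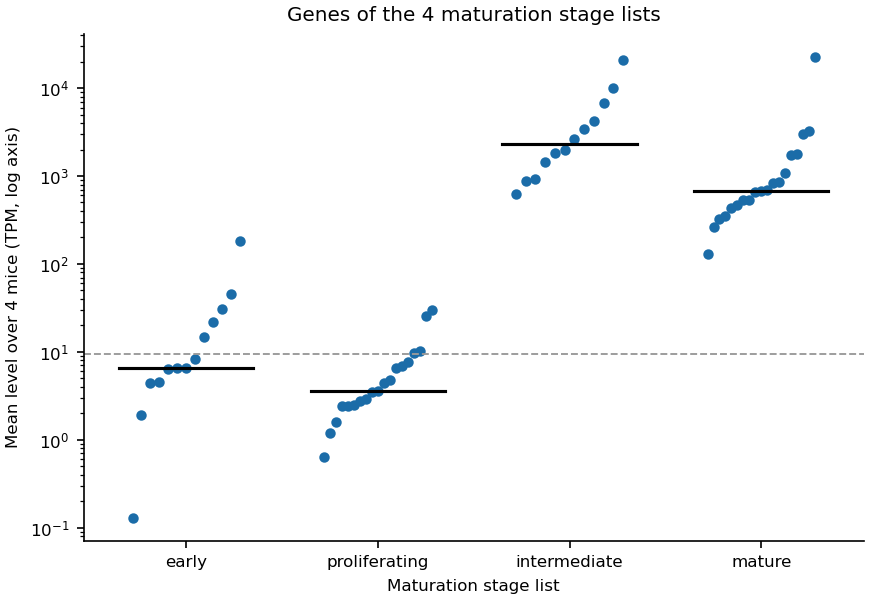
Length-scaled level of each gene of the 4 maturation lists (y axis, TPM, log scale), each point the mean of a gene over the 4 mice, by list, with a bar at the median of each list and a dashed line at 9.44 TPM, the median of the expressed nuclear protein-coding genes. The intermediate and mature genes lie above the dashed line, whereas the medians of the early and proliferating lists, 6.53 and 3.58 TPM, lie below it.

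Among the early genes, Cebpe, a transcription factor required for secondary granules and active into the myelocyte stage, was the highest with 144, 119.8, 97.02 and 113 CPM. Calr, an endoplasmic reticulum chaperone of many cell types, had 70.2, 65.8, 65.8 and 67.1 CPM, Fcnb (ficolin B), a lectin of early neutrophil precursors, 25.3, 21.9, 17.1 and 20.4 CPM and Ms4a3, a marker of granulocyte and monocyte progenitors, 4.69, 4.49, 3.97 and 4.003 CPM. Mouse 1 was the highest of the 4 mice for these 4 genes. The progenitor genes were low, with 26.2 to 32.3 CPM for Kit, the stem cell factor receptor, 18.8 to 22.1 CPM for Myb, and 0.331 to 0.646 CPM for Cd34.

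All 19 proliferation genes had 1 CPM or more in every mouse, but only 5 reached 10 CPM in every mouse. Mki67, a marker of cycling cells, had 128, 171, 159 and 158 CPM and Top2a, a topoisomerase of replicating chromosomes, 39.5, 61.7, 41.5 and 42.5 CPM. Pcna, the clamp of the replication fork, had 22.5, 44.4, 27.3 and 28.8 CPM. Mouse 2 was the highest for these genes, with Pcna 44.4 CPM against at most 28.8 CPM elsewhere, and was the highest for 4 of the 5 genes of 10 CPM or more. Tk1, thymidine kinase, went the other way, at 20.4, 13.9, 19.6 and 19.7 CPM with mouse 2 the lowest. Mcm4 of the replicative helicase had 15.6 to 21.6 CPM, the mitotic genes Ccnb1, Ccnb2, Cdk1 and Plk1 had 5.16, 5.93, 6.92 and 4.96 CPM on average, and Tyms, which makes thymidylate, had 1.63 to 2.53 CPM.

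The intermediate genes that are not on the secondary granule list were Lcp1, Cybb, Anxa1, Ifitm6 and Ly6g. Ifitm6, an interferon-induced transmembrane protein, had 951, 874, 848 and 1037 CPM. Mature genes were led by Retnlg with 6973, 6366, 6879 and 7550.4 CPM and included Csf3r, the G-CSF receptor, with 3254, 3197, 3435 and 3193 CPM. The 4 mice stayed within a narrow band for both genes. Il1b and Il1r2 of this list spread more. Il1b had 537, 711, 765 and 629.5 CPM and Il1r2, the decoy receptor for interleukin 1, 215, 315, 440.3 and 392 CPM, with mouse 1 the lowest and mouse 3 the highest for both. Btg1, an antiproliferative gene, had 1492 to 1934 CPM, Slc2a3, a glucose transporter, 1623 to 1886 CPM, Srgn, a granule proteoglycan, 380.4 to 541 CPM and the chemokine gene Ccl6 771 to 787 CPM. Wfdc17, an antiprotease-like gene, was the lowest of the list at 55.9, 31.6, 26.1 and 33.04 CPM.

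Of 106 receptor genes, 86 had 1 CPM or more in every mouse and 58 had 100 CPM or more, against 42.0% and 1650 of 21886 nuclear protein-coding genes. They took 3.39% to 3.55% of the counts. The lists were chosen for this cell type, so nothing is read from the excess. The median receptor had 64.1 TPM.

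Chemoattractant receptors were led by Cxcr2, Cxcr4 and the formyl peptide receptors. Cxcr2, the receptor for ELR chemokines, had 1695, 1784, 1617 and 1619 CPM and Cxcr4, the receptor for the marrow-retention chemokine Cxcl12, 711, 644, 649 and 623 CPM in mice 1 to 4. Per length, Cxcr2 was 1.52 ± 0.0973 times Cxcr4 within a mouse, and the Cxcr2 level exceeded the Cxcr4 level in all 4 mice. Fpr1 and Fpr2 followed at the levels given above, then C5ar1, the complement C5a receptor, at 507 ± 50.5 TPM. Ccr1 had 479.8 ± 81.3 TPM, above C5ar1 in mouse 2 only, and Ltb4r1, the leukotriene B4 receptor, 347 ± 22.6 TPM. The platelet-activating factor receptor Ptafr had 254, 249, 248 and 209 CPM and the sphingosine receptor S1pr4 179 to 217 CPM, whereas S1pr1 had 3.63 to 5.16 CPM. Cxcr1, the other ELR chemokine receptor, was low at 5.21, 5.76, 4.91 and 6.33 CPM, and the Cxcr2 level was 125 to 161 times the Cxcr1 level per length. Ccr2 (2.096 to 5.76 CPM), Ccr3 (1.25 to 2.71 CPM) and Cxcr3 (0.749 to 1.398 CPM) were near the limit of expression, and Cmklr1 and Fpr3 were below 1 CPM in every mouse.

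Cytokine receptors were led by the receptors of the granulocyte growth factors. Csf3r had 1767 ± 256 TPM, 3.65 to 4.22 times the 451 ± 58.8 TPM of Csf2ra, the alpha chain of the GM-CSF receptor, within a mouse. Csf2rb, the beta chain shared by the GM-CSF, interleukin 3 and interleukin 5 receptors, had 518, 523, 505 and 481 CPM and its paralog Csf2rb2 60.6, 51.8, 52.3 and 51.8 CPM, a split that is uncertain because the genes are alike. Csf1r, the M-CSF receptor of monocytes, had 199, 179, 189 and 155 CPM, and Csf3r exceeded it 26.2 to 32.99 times per length. The Csf1r level is uncertain because 15.1% of its exon bases lie opposite another gene. Il17ra had 858 to 921 CPM, Il18rap 536 to 701 CPM, Tnfrsf1a 379 to 424 CPM and Il6ra 194 to 268 CPM, although Il6st, the signaling chain that Il6ra needs, had 1.22 to 3.33 CPM. Il1r2 exceeded the signaling receptor Il1r1, which had 0.878 to 1.93 CPM. The interferon receptors Ifnar1, Ifnar2, Ifngr1 and Ifngr2 had 40.9, 44.3, 74.8 and 103 TPM on average. Mouse 4 was the lowest for 16 of the 22 cytokine receptors of 10 CPM or more, and for 28.6% of all genes of that level. Flt3, Epor and Il5ra, receptors of other lineages, were below 1 CPM in every mouse.

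Among pattern recognition receptors, Cd14 and Clec4d, a C-type lectin, headed the list per length at 393 ± 96.2 and 326 ± 75.2 TPM, with Clec7a (dectin-1), annotated as a polymorphic pseudogene, at 294 ± 46.7 TPM. The inflammasome sensor Nlrp3 had 329, 414, 432 and 349.6 CPM and Tlr13, which senses bacterial ribosomal RNA, 373, 403, 373 and 359 CPM. Tlr2 had 215, 362, 254 and 251 CPM and Clec4e 213, 393, 260.4 and 274 CPM, both highest in mouse 2 and lowest in mouse 1. Tlr4 had 105 to 136 CPM, Tlr8 92.97 to 111 CPM, Tlr5 83.6 to 103 CPM, Tlr6 63.4 to 75.7 CPM and Tlr7 27.6 to 33.9 CPM, while Ly96, the Tlr4 co-receptor, had 6.59 to 8.92 CPM. Tlr1 (0.542 to 0.956 CPM) and Tlr9 (0.424 to 1.17 CPM) were near 1 CPM or below it, and Tlr3, Tlr11 and Tlr12 were at or near the floor.

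Fcer1g, the signaling chain of Fc receptors, had 863 ± 46.7 TPM, above Fcgr3 at 569 ± 80.5 TPM, Fcgr4 at 139 ± 14.9 TPM and the inhibitory Fcgr2b at 38.6 ± 5.77 TPM. Fcgr1, the high-affinity receptor of monocytes and macrophages, had at most 0.496 CPM and Fcer1a, of mast cells and basophils, at most 0.102 CPM. The adhesion genes described here were all expressed. Itgb2, the beta chain of the leukocyte integrins, had 1469 ± 183 TPM, Cd44 471 ± 68.9 TPM, Selplg, the P-selectin ligand, 296 ± 25.99 TPM and Itgal, the alpha chain of LFA-1, 254 ± 38.97 TPM. Itgb2l, a relative of Itgb2 found in neutrophils, had 352, 391, 400.0 and 414 CPM, while Pecam1 and Icam1 had 8.65 to 11.6 and 3.61 to 4.31 CPM. Among paired and inhibitory receptors, Tyrobp had 2735 ± 136 TPM, Cd33, a sialic acid-binding lectin, 478 ± 98.1 TPM, Sirpa, which binds Cd47, 365 ± 61.2 TPM and Siglece 331 ± 35.8 TPM. Lilrb4a had 707, 1365, 1071 and 1020.3 CPM and was lowest in mouse 1, with 35.3% of its exon bases shared with another gene on its strand. Trem1 and Trem3, amplifiers of neutrophil activation, had at most 0.0516 and 0.316 CPM.

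**Figure D4:**
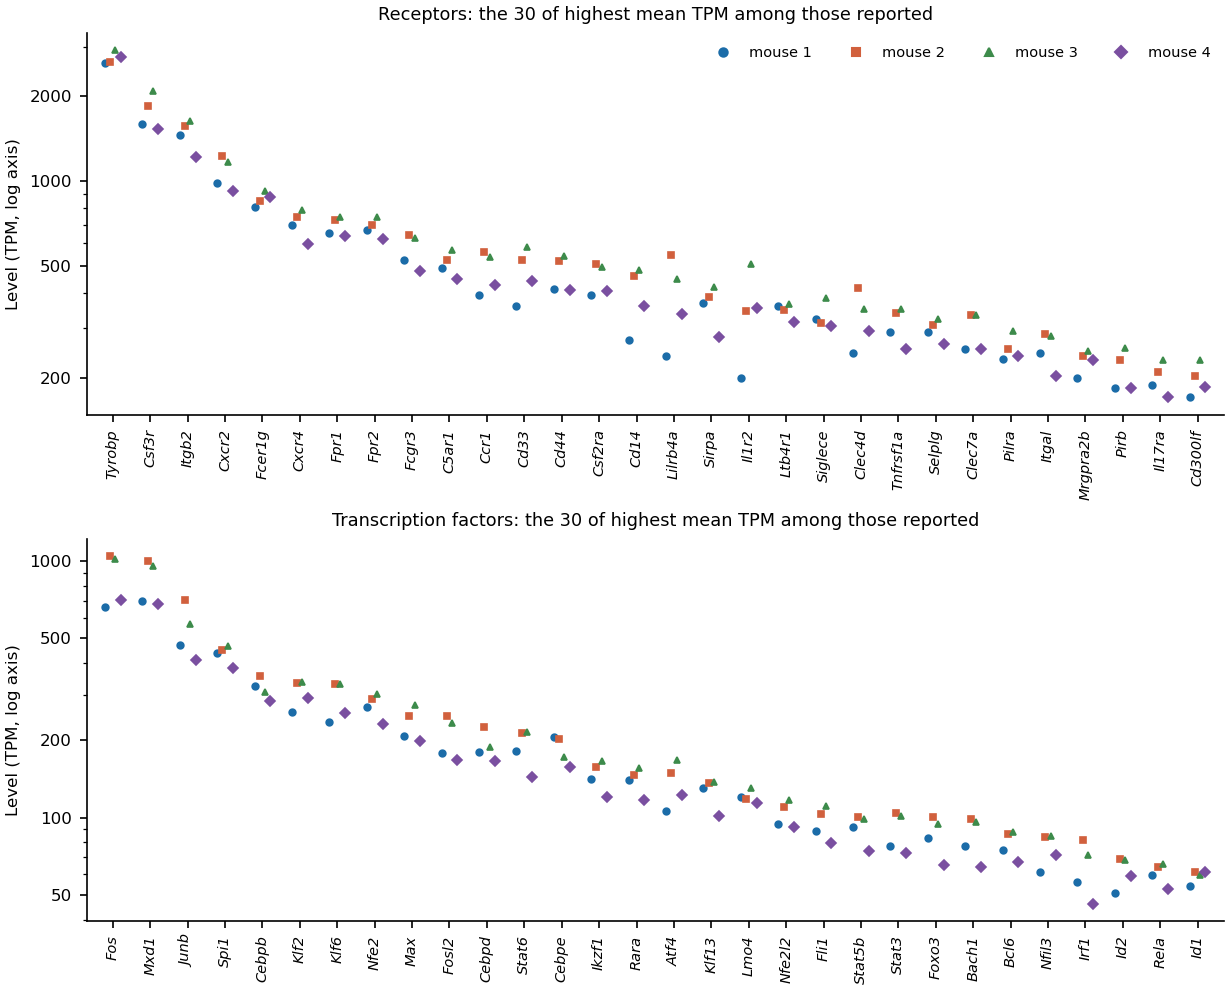
Length-scaled level (y axis, TPM, log scale) of the 30 receptors (top) and the 30 transcription factors (bottom) of highest mean TPM among the listed genes reported here, in falling order, with a symbol for each of the 4 mice. Tyrobp (2735 TPM on average), Csf3r (1767 TPM), Itgb2 (1469 TPM) and Cxcr2 (1073 TPM) head the receptors and Fos (859 TPM) and Mxd1 (835 TPM) the factors, and mice 2 and 3 lie above mice 1 and 4 for most genes on this scale, of which Gm23935 took a smaller share in mice 2 and 3.

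Of 89 transcription factor genes, 69 had 1 CPM or more in every mouse. Of the 31 factors of granulopoiesis, 29 did, of the 33 signal-dependent factors, 30 did, and of the 25 factors of other lineages, 10 did. The background was 42.0% of nuclear protein-coding genes, and the list of other lineages lay near it. The lists were chosen with earlier results of these data known, so nothing is read from these shares. The median gene of these lists had 75.4, 33.1 and 0.345 TPM.

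Mxd1, which partners with Max and opposes Myc, had 2795, 3373, 3091 and 2790.3 CPM in mice 1 to 4, the highest of all factors on this scale. Per length it had 835 ± 167 TPM against 859 ± 202 TPM for Fos, and it was above Fos in mouse 1 and below it in mice 2, 3 and 4. Max had 422, 427, 452 and 416 CPM, and Myc itself 0.767, 0.439, 0.636 and 0.377 CPM, so that the Mxd1 level per length exceeded the Myc level 1399.6 to 2952 times within a mouse, a ratio that carries the low counts of Myc. Spi1 (PU.1), required for the myeloid lineages, had 667, 579, 572 and 595 CPM, with mouse 1 the highest. The C/EBP family was led per length by Cebpb at 319 ± 30.5 TPM, then Cebpd at 189.9 ± 25.2 TPM, Cebpe at 184 ± 23.5 TPM, Cebpa, the factor of progenitors, at 33.6 ± 5.18 TPM and Cebpg at 13.8 ± 2.01 TPM. Cebpd was below Cebpe in mouse 1 and above it in mice 2, 3 and 4. Within a mouse, the Cebpe level was 6.07, 6.41, 4.22 and 5.55 times the Cebpa level. Klf2, Klf6, Nfe2, Ikzf1, Rara and Lmo4 had 306, 289, 273, 146, 139.9 and 121 TPM on average. Gfi1, a repressor that acts early in granulopoiesis, had 12.5, 10.7, 9.36 and 9.702 CPM, and Klf4, a monocyte factor, 1.01 to 2.81 CPM.

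Immediate early genes were abundant. Fos had 879, 1174, 1095 and 963 CPM, Fosl2 972, 1148, 1033 and 936 CPM and Junb 609, 773, 596 and 548 CPM, each highest in mouse 2. Egr1 had 48.7, 113, 120.1 and 130.0 CPM and Atf3 13.7, 32.6, 32.5 and 24.5 CPM, both lowest in mouse 1. Jun had 92.8, 115, 69.3 and 104 CPM, and Jund had at most 0.0775 CPM, a value that is uncertain because 52.6% of its exon bases lie opposite another gene. Of the STAT genes, Stat6, Stat5b and Stat3 had 189 ± 33.3, 91.3 ± 12.2 and 89.2 ± 16.2 TPM, and Stat5a and Stat2 had 11.7 and 9.35 TPM on average. Hif1a had 67.03, 118, 74.4 and 78.7 CPM, with mouse 2 the highest, and Nfe2l2, the factor of the oxidative stress response, 202, 199, 203 and 201 CPM, nearly the same in every mouse. Rela, Nfkb1, Rel, Nfkb2 and Relb of the NF-κB family had 60.5, 33.1, 23.3, 20.2 and 9.65 TPM on average. Pparg and Ahr were below 1 CPM in every mouse.

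The factors of other lineages that reached 10 CPM were Id2 with 69.7, 80.2, 75.9 and 83.8 CPM and Id1 with 35.4, 33.99, 31.5 and 41.2 CPM, inhibitors of E proteins, and the E proteins Tcf3 and Tcf4 with 31.3 to 34.96 and 10.02 to 13.6 CPM, all of which many cell types express. Gata1 and Klf1 (erythroid), Gata3, Eomes and Tbx21 (T and NK cells), and Hoxa9 and Meis1 (progenitors) were below 1 CPM in every mouse. Pax5 and Ebf1 of B cells had 1.55 to 4.35 and 1.69 to 4.14 CPM, and Irf8, a monocyte and dendritic cell factor, 2.21 to 3.18 CPM.

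Traces of other marrow cells were small. The 102 markers of other cell types took 0.0559% to 0.0659% of the counts, against 9.399% to 11.2% for the 14 neutrophil markers, and a single gene each of the T cell and monocyte lists, Cd3d and Csf1r, made up most of it. Of the 102 markers, 32 had 1 CPM or more in every mouse and 51 were below 1 CPM in every mouse, and Hba-a2, Treml1 and Bglap had 0 counts in all. Ahsp was not matched. The summed CPM in mice 1 to 4 were 237, 236, 224 and 180.3 for the 9 monocyte markers, 185, 179.5, 187 and 195 for the 11 T and NK cell markers, 66.3, 51.4, 100.8 and 61.9 for the 14 B and plasma cell markers and 53.2, 48.4, 48.97 and 49.5 for the 9 eosinophil markers. They were 21.6, 29.03, 23.9 and 19.1 for the 10 macrophage markers, 17.8, 6.09, 10.7 and 6.12 for the 11 erythroid markers found and 21.3, 9.76, 15.5 and 10.9 for the 9 megakaryocyte and platelet markers. The 7 stem and progenitor markers summed to 28.8 to 34.7 CPM, mostly Kit. The basophil and mast cell, dendritic cell and stroma lists each summed to less than 10 CPM in every mouse.

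The T and NK cell sum was Cd3d almost alone. Cd3d, a subunit of the T cell receptor complex, had 181, 176, 183 and 192 CPM, whereas Cd3g, its neighbor on chromosome 9, had 2.798, 2.89, 2.87 and 2.78 CPM and Cd3e 0.293, 0, 0.153 and 0.235 CPM. Trac, Cd4, Cd8a, Lck, Ncr1 and Gzma were below 1 CPM in every mouse. Cd3d thus stood without the genes that accompany it in T cells, at 109 to 124 times Cd3g per length. Csf1r made up most of the monocyte sum. Ccr2, the chemokine receptor of inflammatory monocytes, had 3.66, 5.76, 3.23 and 2.096 CPM, and F13a1, a coagulation factor subunit of monocytes and platelets, 4.74, 10.4, 6.13 and 4.22 CPM. Fn1 (fibronectin) had 15.2, 24.1, 13.98 and 8.27 CPM and the fractalkine receptor Cx3cr1 1.47, 1.65, 1.04 and 1.06 CPM. Mouse 2 was the highest for each of these 4 genes.

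Ighm, the heavy chain constant region of IgM, had 41.1, 31.3, 57.9 and 37.7 CPM, Cd79a 7.15, 6.02, 7.58 and 6.29 CPM and Igkc 3.41, 1.52, 12.1 and 7.68 CPM. Mouse 3 was the highest for these 3 genes and for Jchain, a plasma cell gene, with 0.135, 0.155, 3.03 and 2.35 CPM. Eosinophil-associated ribonucleases were present, with 23.7 to 27.3 CPM for Ear2, 4.13 to 5.62 CPM for Ear1 and 3.02 to 3.53 CPM for Ear6, near-identical genes whose split is uncertain, and Siglecf, a sialic acid-binding lectin of eosinophils, had 12.3 to 15.05 CPM. The eosinophil granule genes Prg2, Prg3 and Epx were below 1 CPM in every mouse, with Epx at 16, 8, 4 and 0 counts. Hemoglobin was low. Hbb-bs had 6.86, 1.83, 3.0 and 1.65 CPM and Hba-a1 6.27, 1.91, 2.797 and 1.55 CPM, both highest in mouse 1, and the erythroid mean of 10.2 CPM fell to 7.65 CPM without that mouse. The C1q genes of marrow macrophages had 0.534 to 1.704, 0.565 to 1.81 and 0.377 to 1.21 CPM for C1qa, C1qb and C1qc. The platelet chemokine gene Ppbp had 3.79, 2.12, 2.67 and 1.91 CPM and Pf4 1.13, 0.3099, 1.07 and 0.777 CPM, both highest in mouse 1. The source of these counts was not tested.

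**Figure D5:**
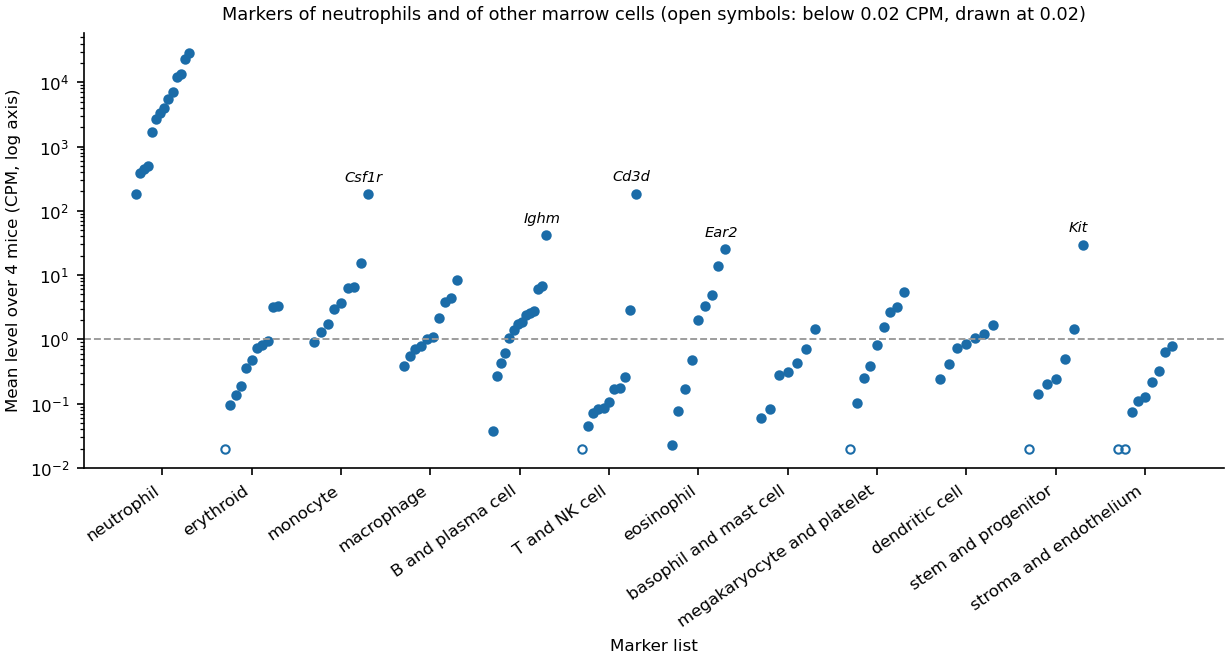
Mean level over the 4 mice of each marker gene (y axis, CPM, log scale), by cell type list, with open symbols at 0.02 for genes below it, a dashed line at 1 CPM and the most abundant gene named in 5 lists. All 14 neutrophil markers lie at 179.8 CPM or higher, and Csf1r and Cd3d are the only markers of other cells above 100 CPM.

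The remaining classes of transcript were minor or uneven. Protein-coding genes took 92.7, 92.7, 92.6 and 91.1% of the counts in mice 1 to 4. The 83 cytosolic ribosomal protein genes took 0.352, 0.35, 0.354 and 0.395% and histone genes 0.196 to 0.268%, the latter led by the linker histone genes Hist1h1c and Hist1h1e. The mitochondrial genome gave 1.17 to 1.57% of the counts on genes (a mean of 0.652% of all counted reads), of which its 2 ribosomal RNAs took 1.14 to 1.52% and its 13 mRNAs 0.0343 to 0.0452%. Mt-Co1, a subunit of cytochrome oxidase, had 254, 245, 223 and 275 CPM, mt-Cytb 65.6, 45.6, 44.6 and 68.4 CPM and mt-Nd1 32.3, 26.8, 27.1 and 34.5 CPM. By contrast mt-Co2, mt-Co3, mt-Atp6, mt-Atp8, mt-Nd3 and mt-Nd4l had at most 3 counts in any mouse. Nuclear copies of mitochondrial sequence exist, and reads that match 2 places are not counted, and their part in these values was not tested.

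The genes annotated as lincRNA took 2.18 to 2.65% of the counts, led by Malat1, Gm26917 and Neat1. The kind of transcript behind the Gm26917 counts was not tested. Neat1, the scaffold of paraspeckles, had 848, 2001, 3772 and 3070.3 CPM and was lowest in mouse 1. The share of reads with no feature was 32.0, 36.0, 42.4 and 40.3% in mice 1 to 4. The mice had the same order for this share, Neat1 and Malat1, and a link was not tested. Mirt1 had 315 to 455 CPM, and Tug1, annotated as antisense and so outside this class, had 131 to 156 CPM. The class of miRNA genes took 0.858, 0.543, 0.427 and 0.779%, nearly all in Gm23935, and the misc_RNA genes, Rn7sk among them, 1.07, 0.864, 0.868 and 1.35%. These figures cover RNA that survived a library protocol for long fragments and are not levels of mature miRNAs.

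Most genes differed little between mice, as 0.552% to 5.73% of the 11050 genes differed over 2-fold in a pair of mice. Over 6404 genes of mean CPM of 10 or more, the median tagwise BCV was 0.111, and it was 0.102 for the cytokine receptors, 0.108 for the chemoattractant receptors and 0.111 for the granulopoiesis factors. The secondary granule list had a median of 0.128 and the early list 0.157, the latter with Elane at 0.243. With 4 libraries, edgeR draws each tagwise BCV toward that of other genes, so it does not measure the spread of a gene alone. Ccl6, with an SD of 0.89% of its mean CPM, had a BCV of 0.0983. Differences between the list medians are therefore not read. The gene of highest BCV was Rprl2, annotated as a ribozyme gene, at 1.08, with 2.84, 258, 3.15 and 334 CPM in mice 1 to 4, and it was the only gene above 0.5. The other 9 of the 10 most variable genes included Neat1, the small nuclear RNA genes Gm24265 (806, 335, 319 and 1125 CPM) and Gm24407 (721, 296, 297 and 1019 CPM), the miRNA gene Mir6236 (39.7, 17.7, 49.05 and 8.36 CPM) and a single protein-coding gene, the bile acid transporter Slc10a1 (5.39, 22.3, 10.7 and 7.39 CPM). Gm24265, Gm24407 and the small nucleolar RNA gene Gm23442 were higher in mice 1 and 4 than in mice 2 and 3, whereas Neat1, Gm16337, Gm37651 and Gm44664 were lower in mice 1 and 2 than in mice 3 and 4.

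Which mouse was lowest or highest depended on the gene group. Of the 6011 genes of 10 CPM or more in every mouse, mouse 1 was the lowest for 40.7%, mouse 3 the highest for 36.7% and mouse 2 the highest for 25.1%, while mouse 3 was the lowest for 11.6% and mouse 4 the highest for 14.6%. The ranks of mice, here and above, are of CPM without the TMM factors, which were 0.937 for mouse 1 and 1.06 for mouse 3. Applying these factors would raise the levels of mouse 1 and lower those of mouse 3, and their part in these shares was not tested. Mouse 1 was nevertheless the lowest for 0 of the 11 secondary granule genes and 0 of the 12 intermediate genes. It was the highest for 5 and 7 of them, and for 23.6% of the 6011 genes. These lists share 7 genes, so their counts partly repeat each other. Mouse 2 was the highest for 16 of 29 signal-dependent factors and 8 of 14 pattern recognition receptors, and mouse 1 the lowest for 8 of these 14 receptors. The genes of a list are not independent of each other, and batches of extraction or sequencing are not given in the labels.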

How the data were processed

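Total RNA of sorted BM neutrophils from 4 WT FVB mice was depleted of ribosomal RNA and sequenced in paired reads of 150 bases. According to the methods, the authors trimmed reads and kept those of at least 120 bases, used STAR for alignment to the mm10 build and HTSeq for counting, and the deposited values are raw counts per gene for each library. The submitters' processing notes also name FastQC. The strand setting, the annotation release and whether mates were counted singly are not given in the sources used here. Summary lines that name no gene stayed out of the totals. They held 32.0% to 42.4% of the counted reads with no feature, 2.43% to 2.92% ambiguous and 9.22% to 11.4% not unique.

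CPM were counts over the total on genes, 38722900 to 44310707 per mouse. TPM used the merged exon length of 55154 of the 55335 listed genes that matched GENCODE M21. The spread between mice was estimated as the BCV with edgeR 4.0.16 and TMM factors in R 4.3.3, over genes past its expression filter, and DESeq2 1.42.0 gave the size factors of an alternative. The BCV step was tested on simulated data.

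There is 1 group, so no groups were compared and no p-value is given. Pairs of libraries were compared by chi-square to look for duplicates, and Dixon's criterion was used to list values of 1 mouse that lay far from the rest. Values are means and SDs over 4 libraries. The labels number the replicates but do not say that each is a separate animal, so the SD may be partly technical. The text names the 25 genes of highest mean CPM, the 25 protein-coding genes of highest mean TPM, members of the lists (those highest, those at 0 and those that define the list), the 10 genes of highest BCV at a mean of 10 CPM or more, and genes that check the labels. The libraries, the gene lists and the markers were chosen with earlier results of these data known. Promoters are RefSeq sequences on GRCm38.p6, 20545 of them matched by symbol. The alternatives were other minimum levels, other denominators, other gene lengths, the removal of genes with overlapping exons, other scalings and filters for the BCV, and leaving out each mouse. Some genes of the lists are not reported here, and counts and sums over whole lists include them.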

Additional observations from a re-analysis of the deposited data

Results flagged for a closer look

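In a group of 4, a value was picked out when its gap to the nearest of the other mice exceeded Dixon's critical share of the whole range. Of 284 sums, classes and genes of mean CPM of 10 or more, 16 met this (5.63%), close to the 1 in 20 that chance picks out, so the values below are listed as a description only. Mouse 1 stood apart in 6, mouse 2 in 4, mouse 4 in 6 and mouse 3 in 0.

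Mouse 1 was high for the early stage list, with a sum of 358 CPM against 306 to 311 CPM in the other mice. Of that list, Cebpe was highest in mouse 1, but Mpo, Elane, Prtn3 and Ctsg were highest in mouse 3. Mouse 1 was high for Mmp9 of tertiary granules, with 6447 CPM against 5072 to 5114 CPM. It was also high for Csf2rb2, a growth factor receptor chain, at 60.6 CPM, and for Rela, an NF-κB subunit, at 104 CPM. It was low for the paired and inhibitory receptors, which summed to 6894 CPM against 7587 to 7709 CPM, and for Cd14, at 266 CPM against 362 to 380 CPM.

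Mouse 4 had the lowest share of protein-coding counts, 91.1% against 92.6% to 92.7%, and the highest share of cytosolic ribosomal protein genes, 0.395% against 0.35% to 0.354%. It was high for Tmsb4x at 5216 CPM against 4758 to 4805 CPM, for the Mas-related receptor gene Mrgpra2b at 178 CPM and for Cstb at 26.1 CPM, and low for Ptafr at 209 CPM against 248 to 254 CPM.

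Mouse 2 was high for Top2a at 61.7 CPM against 39.5 to 42.5 CPM and for Tlr7 at 33.9 CPM, and low for Tk1 at 13.9 CPM against 19.6 to 20.4 CPM and for the adaptor Lmo2 at 33.3 CPM against 45.5 to 46.6 CPM.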

How the results depend on the processing

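Of 77 alternative values, 50 counted as the same and 27 as changed, all without a test. For sums and shares the limit was the SD between mice, and for gene counts a small ratio. The BCV counted as changed when it differed after rounding to hundredths. Leaving out 1 of the 4 mice cannot move a mean by as much as that SD. The sums and shares without a mouse were therefore the same by construction. The number of expressed genes, 11050 at 1 CPM in each mouse, was 16686 at 3 counts and 6011 at 10 CPM, and 11096 to 11421 when a mouse was left out. Without genes whose exons overlap another gene, the granule share was 9.32% in place of 6.98%, that of the 10 most abundant genes 20.2% in place of 14.7%, that of the 100 most abundant 42.7% in place of 33.7% and the mitochondrial share 1.82% in place of 1.33%, since the total is smaller. The share of the 100 most abundant genes was 31.9% of nuclear protein-coding counts, and the mitochondrial share was 0.652% of all counted reads. Against nuclear protein-coding TPM, the stage sums were 529.9 TPM (early), 202 TPM (proliferating), 88710.0 TPM (intermediate) and 63433 TPM (mature), and the markers of other cells 829 TPM. With the mean transcript length they were 300.4, 209, 68518, 32622 and 618 TPM, and without overlapping genes the intermediate and mature sums were 62244 and 44131 TPM. The order of the 4 stage sums was the same under each of these alternatives. Leaving out each mouse gave 6.75% to 7.23% for the granule share, 14.2% to 15.2% for the 10 and 33.2% to 34.4% for the 100 most abundant genes, and 1.25% to 1.38% for the mitochondrial share. The stage sums were then 329 to 351, 117 to 138, 55473 to 56525 and 38577 to 41345 TPM for the early, proliferating, intermediate and mature lists, and the markers of other cells 489 to 555 TPM. The common BCV of 0.164 was 0.175 without overlapping genes, 0.185 without a filter, 0.122 at a mean of 10 CPM or more and 0.133 to 0.182 when a mouse was left out, with the lowest value without mouse 1. No paired analysis was possible because there is 1 group. Depth limits levels below 0.0775 CPM, and the share of reads with no feature, up to 42.4%, bounds what the gene totals represent.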
